A study of Homo sapiens with 4 samples.

Results

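The genes described are 37 members of the hypoxia pathway, chosen by gene symbol: the subunits of the hypoxia-inducible factors (HIF), the enzymes that sense oxygen and turn HIF over, and HIF targets outside glycolysis. All 37 symbols were found once among the 58302 genes of the files. They were measured in HepG2, a human hepatocellular carcinoma cell line (genotype labelled WT), grown under standard conditions with no library labelled as kept in low oxygen. To explore the effect of melatonin on gene expression, the cells had received 1 mM melatonin or its solvent DMSO for 24 h or for 48 h, and mRNA-seq was done on 1 library for each of the 4 conditions. Since each condition has 1 library, the spread between cultures is unknown and no p-value was computed.

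Levels are given as the deposited FPKM, which scales the fragments of a gene by its length and by the library size. Read numbers were recovered from FPKM and length, and summed to between 21616676 and 23086025 per library. Intervals are 95% exact intervals from these reads and cover counting error only. A level of 3 reads on a gene of 1 kb equals an FPKM of 0.135 to 0.163. Fold changes are log2 of the FPKM plus 1 in the first library over the FPKM plus 1 in the second, a scale that understates changes of low genes, and a gene was counted in a comparison where either library gave it an FPKM of 1 or more. Of the 37 genes, 34 reached that level in at least 1 library, and CA12, EGLN3 and LOXL2 did in none. The hepatocyte markers fixed for this check (ALB, AFP, APOB and others) were all present, with all 12 between FPKM 34.9 and 3343 in every library. The summed FPKM was between 0.804 and 4.33 for 6 fibroblast markers, nearly all of it PDGFRB, between 0.543 and 1.18 for 5 endothelial markers and between 0.525 and 1.16 for 5 leukocyte markers, and COL1A2, COL3A1, KDR, TEK and CD3E had 0 reads in every library. The mitochondrial share of reads was highest in the DMSO library of 24 h and lowest in that of 48 h (9.77%), with 16.6% and 11.9% in the melatonin libraries of 24 h and 48 h.

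HIF is a pair of proteins, an alpha subunit (HIF1A or EPAS1) and the partner ARNT. When oxygen is present, the prolyl hydroxylases EGLN1, EGLN2 and EGLN3 hydroxylate the alpha subunit, VHL binds it and it is degraded, while HIF1AN hydroxylates it at another site and blocks its use of coactivators. When oxygen is low the alpha subunit accumulates, binds short hypoxia response elements and raises transcription of genes for blood vessel growth, red cell production, pH control, mitophagy and collagen modification. Since this control acts on protein, mRNA levels of the alpha subunits do not report HIF activity, and targets such as CA9, EGLN3, NDRG1 and BNIP3 are commonly read instead. In liver tumours and their cell lines the pathway is known for VEGFA and, in HepG2, for oxygen-regulated EPO.

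The core of the hypoxia response element, ACGTG or GCGTG on either strand, was looked up in the 250 bases before the RefSeq transcription start (GRCh38.p14), for which windows were found for 30 of the 37 genes. At least 1 match lay in 31 of their 42 windows (73.8%), against 43.2% of all 35116 windows and 55.9% of the 12627 windows of genes that reached an FPKM of 1. At CACGTG both strands match at overlapping positions and count as 2. A match is a string of letters and not a site shown to bind HIF. The windows of 5 genes on which the results turn are given 5′ to 3′ with matches in capitals. They are CA9 (chr9:35673678-35673927, forward strand), lower with melatonin at both times, EPO (chr7:100720218-100720467, forward strand), lower with melatonin at 24 h, BNIP3 (chr10:131981924-131982173, reverse strand) and BHLHE40 (chr3:4979187-4979436, forward strand), both lower at 48 h than at 24 h with DMSO, and WSB1 (chr17:27293864-27294113, forward strand), higher with melatonin at 48 h.
CA9: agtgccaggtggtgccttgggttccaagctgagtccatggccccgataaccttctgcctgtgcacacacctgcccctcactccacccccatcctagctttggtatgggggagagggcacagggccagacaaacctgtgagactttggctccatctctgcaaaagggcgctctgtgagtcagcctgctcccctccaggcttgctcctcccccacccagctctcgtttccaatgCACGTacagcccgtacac
EPO: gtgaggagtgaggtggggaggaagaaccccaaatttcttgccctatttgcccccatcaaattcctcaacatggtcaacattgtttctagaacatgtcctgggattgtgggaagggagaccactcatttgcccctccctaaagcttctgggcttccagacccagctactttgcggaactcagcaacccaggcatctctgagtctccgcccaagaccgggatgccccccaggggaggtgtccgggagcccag
BNIP3: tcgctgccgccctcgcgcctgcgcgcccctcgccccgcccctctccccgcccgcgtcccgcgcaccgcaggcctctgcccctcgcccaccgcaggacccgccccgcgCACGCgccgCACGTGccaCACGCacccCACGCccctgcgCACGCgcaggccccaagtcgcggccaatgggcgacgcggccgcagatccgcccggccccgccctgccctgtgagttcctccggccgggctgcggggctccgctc
BHLHE40: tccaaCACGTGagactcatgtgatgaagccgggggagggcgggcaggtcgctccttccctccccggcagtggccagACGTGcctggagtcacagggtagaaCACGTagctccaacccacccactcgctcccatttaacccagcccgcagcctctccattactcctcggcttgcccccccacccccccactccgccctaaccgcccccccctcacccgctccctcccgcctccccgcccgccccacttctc
WSB1: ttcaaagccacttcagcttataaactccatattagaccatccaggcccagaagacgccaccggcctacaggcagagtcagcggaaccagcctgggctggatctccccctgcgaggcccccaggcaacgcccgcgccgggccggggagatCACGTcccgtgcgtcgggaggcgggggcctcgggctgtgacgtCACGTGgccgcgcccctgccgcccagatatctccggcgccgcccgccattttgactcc

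CA9 has 1 match, which begins 18 bases before the start, BNIP3 has 6, BHLHE40 has 4 and WSB1 has 3. EPO has 0 in this window, which says only that these letters are not in it, and its best known HIF element lies in an enhancer beyond the gene. The RefSeq starts are not identical to the gene bounds in the files.

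The mRNA of the alpha subunits was similar in most libraries. HIF1A (ENSG00000100644, chromosome 14 of hg38 from 61695513 to 61748259) had an FPKM of 28.2 with DMSO against 27.8 with melatonin at 24 h, and of 28.4 with DMSO and 21.4 with melatonin at 48 h. The 48 h melatonin library was the low one, at 0.755 of the DMSO level (95% exact interval 0.716 to 0.796). EPAS1, the alternative alpha subunit, stayed between 22.5 and 25.3 in the 4 libraries. ARNT was lower than both, at 3.70 with DMSO against 4.34 with melatonin at 24 h and at 5.66 and 4.76 at 48 h, and its order between melatonin and DMSO was opposite at the 2 times.

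Among the genes that act on HIF, the oxygen sensor EGLN1 was lower with melatonin at both times and HIF1AN was higher at both, each by a small factor. EGLN1 had an FPKM of 12.9 with DMSO against 9.89 with melatonin at 24 h, and of 8.70 and 7.26 at 48 h, which is 0.765 (0.713 to 0.820) and 0.834 (0.771 to 0.903) of DMSO. In GENCODE 44, 55.8% of its exonic bases overlap another gene on the same strand, so its values are uncertain. VHL, the recognition subunit of the ligase, lay between 27.4 and 30.7 in all libraries. HIF1AN had 8.98 with melatonin against 8.07 at 24 h and 8.96 against 7.37 at 48 h, which is 1.11 and 1.22 times DMSO, with both intervals above 1. EGLN2 was low in every library, from 0.967 to 1.61. EGLN3, itself a HIF target, was covered by 123 (DMSO) and 66 (melatonin) reads at 24 h and by 31 and 34 at 48 h. Its FPKM of 0.910 with DMSO at 24 h was the highest of the 4 libraries and still under 1.

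**Figure D1:**
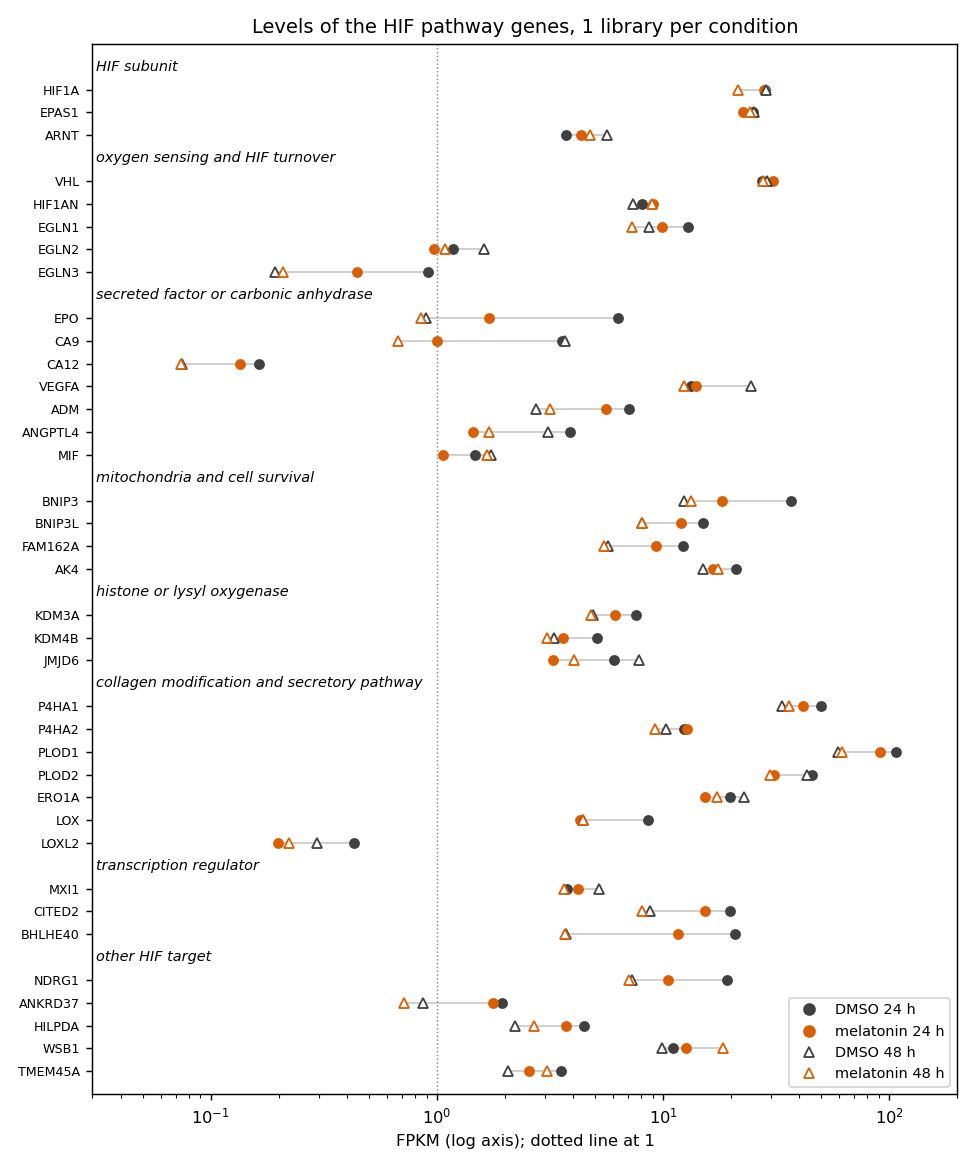
FPKM on a log axis of each of the 37 genes in the 4 libraries, grouped by role, with grey or black symbols for DMSO, orange for melatonin, filled circles for 24 h and open triangles for 48 h. The filled black circle (DMSO, 24 h) is the rightmost point for EPO, ADM, BNIP3, NDRG1, LOX and BHLHE40, while VEGFA and JMJD6 are highest with DMSO at 48 h and WSB1 with melatonin at 48 h.

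At 24 h most of the genes were lower with melatonin than with DMSO. Of the 34 genes counted, 27 had a log2 fold change below 0 and 7 above, with a median of -0.29, while the median of all 13582 genes was 0.02 and 46.5% of them were below 0. The interval of the ratio lay below 1 for 22 of the 34 genes, against 22.4% of all genes, and above 1 for 5 genes (ARNT, HIF1AN, VEGFA, VHL and WSB1), against 28.2% of all genes. The 2-fold threshold (a log2 fold change of at most -1) was passed by CA9 and EPO, against 2.93% of all genes, and no gene of the 34 was 2-fold higher, against 1.42%. The log2 fold changes ran from -1.43 for EPO to 0.18 for ARNT. As these are bulk libraries, fewer cells expressing a gene and less RNA per cell cannot be told apart.

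The 2 genes past 2-fold at 24 h were a hormone and a pH regulator. EPO encodes erythropoietin, the hormone of red cell production, and lies on chromosome 7 from 100720800 to 100723700. Its FPKM in the DMSO library of 24 h was 6.31 (5.35 to 7.39), and in the melatonin library 1.71 (1.25 to 2.27). The libraries of 48 h gave 0.891 (0.582 to 1.31) for DMSO and 0.847 (0.548 to 1.25) for melatonin. The DMSO library of 24 h alone was high, with 154 reads, and the interval of the 48 h ratio, 0.526 to 1.71, held 1.

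CA9 encodes carbonic anhydrase IX, a membrane enzyme that acidifies the space outside the cell, and lies on chromosome 9 from 35673856 to 35681159. Its FPKM in the DMSO libraries was 3.59 (2.95 to 4.32, 110 reads) at 24 h and 3.69 (3.09 to 4.36, 135 reads) at 48 h. In the melatonin libraries it was 1.00 (0.695 to 1.40, 34 reads) and 0.674 (0.436 to 0.995, 25 reads). Both DMSO libraries were high and both melatonin libraries low, and the intervals of DMSO and melatonin did not overlap. Melatonin was at 0.280 of DMSO (0.185 to 0.414) at 24 h and at 0.183 (0.114 to 0.282) at 48 h. In GENCODE 44, 35.7% of the exonic bases of CA9 overlap ARHGEF39 on the other strand, and whether the counting used strand is not given in the sources used here. ARHGEF39 had 243 and 271 reads at 24 h and 80 and 163 at 48 h (DMSO, then melatonin), and its part in the result was not tested. The related enzyme CA12 had 12 to 22 reads per library.

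For ANGPTL4 and BNIP3 melatonin was under 0.5 of DMSO at 24 h by the plain ratio, at 0.375 (0.282 to 0.496) and 0.494 (0.467 to 0.522), and the pseudocount of 1 kept both short of the 2-fold rule. The log2 fold change of LOX was -0.86. ANGPTL4, a secreted inhibitor of lipoprotein lipase, had an FPKM of 3.86 with DMSO against 1.45 with melatonin at 24 h and of 3.09 and 1.71 at 48 h, low in both melatonin libraries. BNIP3, a mitophagy receptor on the mitochondrial outer membrane, went from 36.8 with DMSO to 18.2 with melatonin at 24 h, and had 12.3 and 13.2 at 48 h. LOX, which cross-links collagen and elastin, had 8.54 with DMSO at 24 h and between 4.28 and 4.43 in the other 3 libraries. The highest library was again DMSO at 24 h for all of these.

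NDRG1, a growth-arrest protein, was highest with DMSO at 24 h, followed by melatonin at 24 h, as BNIP3 was. Its FPKM was 19.2 with DMSO against 10.5 with melatonin at 24 h, and 7.27 and 7.07 at 48 h. BHLHE40, a transcription repressor, had 20.8 and 11.7 at 24 h and 3.71 and 3.69 at 48 h. For both genes the libraries of 48 h could not be told apart by their counts and lay below both libraries of 24 h.

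**Figure D2:**
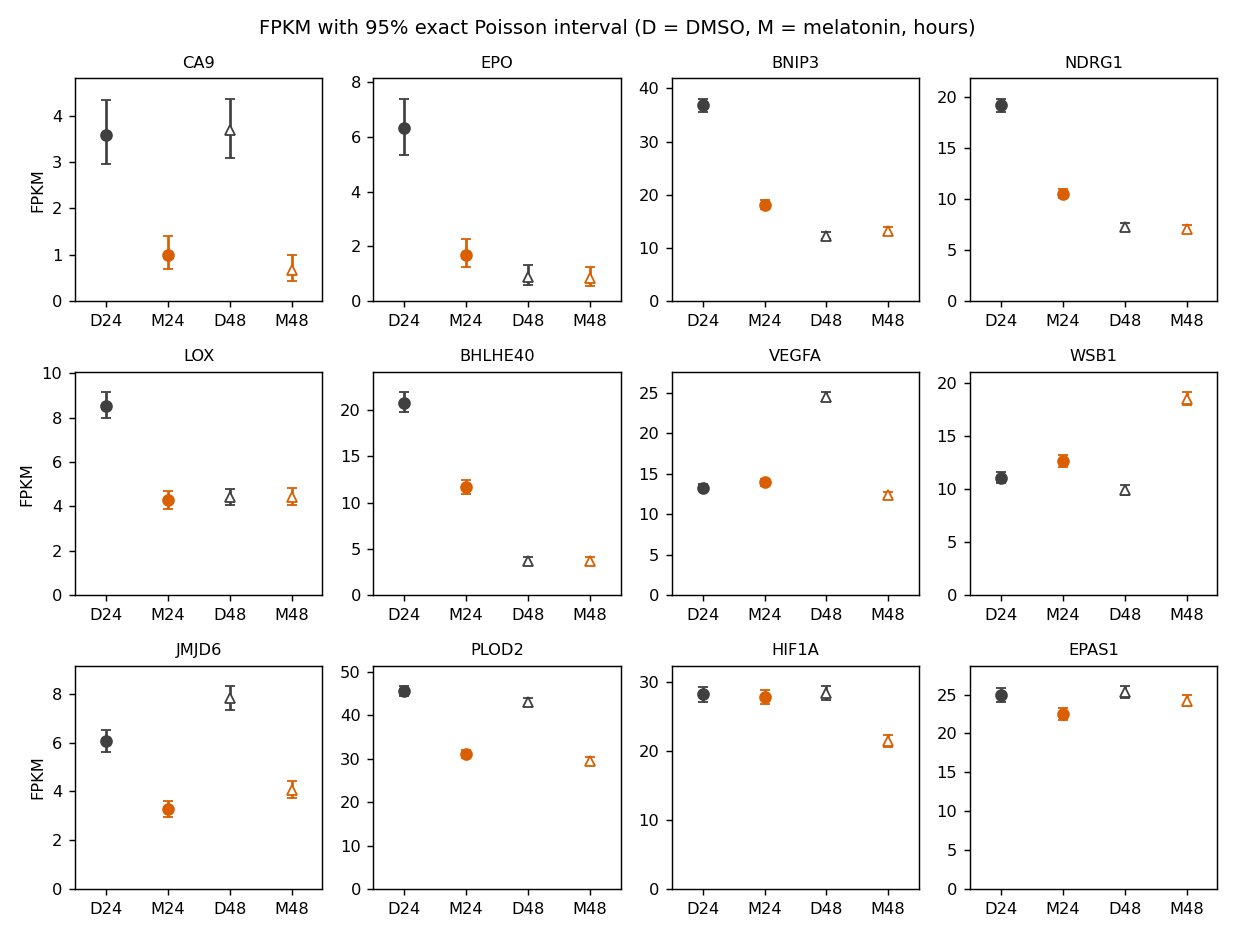
FPKM of 12 genes in the 4 libraries (D24 and M24, DMSO and melatonin at 24 h; D48 and M48, the same at 48 h), each axis starting at 0, with bars for 95% exact Poisson intervals of the reads. CA9, JMJD6 and PLOD2 are lower with melatonin at both times, EPO, BNIP3, NDRG1, LOX and BHLHE40 are highest with DMSO at 24 h, and VEGFA and WSB1 stand apart in 1 library of 48 h each.

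At 48 h the genes as a whole were close to the rest of the transcriptome. Of 32 genes counted, 22 had a log2 fold change below 0 and 10 above, with a median of -0.05, while the median of all 13805 genes was -0.02 and 52.5% of them were below 0. The direction turned with library sizes from reads without mitochondrial genes, where 14 of the 32 were below 0 and the median was 0.009. The ratio interval lay below 1 for 12 of the 32 genes, against 33.1% of all genes, and above 1 for 6, against 29.1%. CA9 was 2-fold lower, against 3.32% of all genes, and no gene of the 32 was 2-fold higher, against 2.39%. The range was from -1.48 for CA9 to 0.84 for WSB1.

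Apart from CA9, the widest differences at 48 h were in VEGFA, JMJD6 and WSB1. VEGFA, the main growth factor of blood vessels (chromosome 6 from 43770184 to 43786487), had an FPKM of 13.3 with DMSO against 13.9 with melatonin at 24 h, and of 24.5 with DMSO and 12.4 with melatonin at 48 h. The DMSO library of 48 h was the high one, with 7753 reads against 3515 to 4080 in the others, and melatonin was at 0.505 of DMSO (0.486 to 0.525). WSB1, a subunit of a ubiquitin ligase, went the other way, with 11.1 (DMSO) and 12.6 (melatonin) at 24 h against 9.88 and 18.5 at 48 h. It was 1.87 times the DMSO level at 48 h (1.77 to 1.98).

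JMJD6, an iron-dependent oxygenase that hydroxylates lysines, was lower with melatonin by a similar factor at both times. Its FPKM was 6.06 with DMSO against 3.26 with melatonin at 24 h, and 7.82 and 4.05 at 48 h, which is 0.538 (0.474 to 0.611) and 0.518 (0.466 to 0.576) of DMSO. The histone demethylases KDM3A and KDM4B, likewise iron-dependent oxygenases, were lower at 24 h only, at 0.807 (0.755 to 0.863) and 0.702 (0.648 to 0.761) of DMSO. Their intervals at 48 h held 1, that of KDM4B not with TPM, where it lay below 1. Other histone demethylases, KDM4C, KDM5C and KDM6B, belong to the further non-glycolytic targets described below and were lower with melatonin at both times. Their log2 fold changes were -0.30, -0.13 and -0.38 at 24 h and -0.30, -0.14 and -1.29 at 48 h. Their ratio intervals are not given here.

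The genes of collagen modification split in the same manner. PLOD2, a lysyl hydroxylase of collagen, had an FPKM of 45.6 with DMSO against 31.0 with melatonin at 24 h and of 43.1 and 29.6 at 48 h, at 0.681 (0.655 to 0.707) and 0.686 (0.662 to 0.711) of DMSO. ERO1A, which makes disulfide bonds in the endoplasmic reticulum, had 19.8 and 15.3 at 24 h and 22.7 and 17.4 at 48 h. In both genes each melatonin library was below each DMSO library. PLOD1, a relative of PLOD2, and the prolyl hydroxylase P4HA1 were lower with melatonin at 24 h (0.849 and 0.834 of DMSO) and slightly higher at 48 h (1.04 and 1.07), though with TPM the 48 h intervals were not above 1, and P4HA2 had a log2 fold change of 0.03 at 24 h and -0.14 at 48 h. PLOD1 was the most abundant of the 37 genes by FPKM, from 59.5 to 107. LOXL2 had 23 to 45 reads per library.

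In all, the ratio interval lay below 1 at both times for 6 of the 32 genes counted at both (ANGPTL4, CA9, EGLN1, ERO1A, JMJD6 and PLOD2), against 14.8% of all genes, and above 1 at both for HIF1AN and WSB1, against 16.8%. The 2 comparisons of melatonin with DMSO share no library. Of the 37 genes, CA9 alone passed 2-fold at both times.

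**Figure D3:**
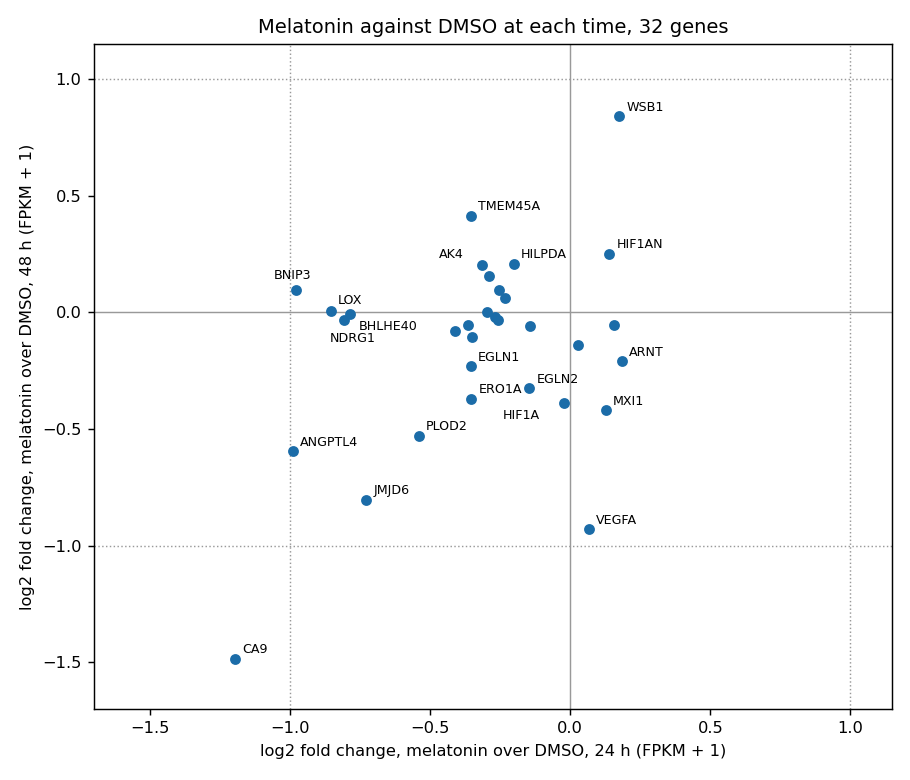
Log2 fold change of melatonin over DMSO at 24 h (horizontal) and at 48 h (vertical), on the scale of FPKM plus 1, for the 32 genes counted at both times, with dotted lines at the 2-fold threshold and names where the value is at least 0.5 from 0 at 24 h or 0.2 at 48 h. CA9 is in the lower left corner, BNIP3, LOX, NDRG1 and BHLHE40 are low at 24 h and near 0 at 48 h, and VEGFA and WSB1 are far from 0 at 48 h alone.

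The difference between the 2 times was computed for each gene as the log2 ratio of 48 h minus that of 24 h. Its interval from counting error (a normal approximation) lay above 0 for 18 of the 32 genes, against 21.5% of all genes. A value above 0 means a smaller fall at 48 h, a larger rise, or a fall at 24 h and a rise at 48 h. The interval lay below 0 for 6 (ARNT, HIF1A, MXI1, P4HA2, VEGFA and VHL), against 27.0%. The difference was 1.12 (0.99 to 1.25) for BNIP3, 1.00 (0.77 to 1.24) for LOX, 0.83 (0.70 to 0.96) for NDRG1 and -1.06 (-1.14 to -0.97) for VEGFA. For JMJD6, PLOD2 and ERO1A the interval held 0.

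The level with DMSO itself differed between the times for many of these genes. From 24 h to 48 h with DMSO, 23 of 34 genes had a log2 fold change below 0 and the median was -0.48, beside 0.00 for all 13854 genes, of which 49.7% were below 0. The 6 genes ADM, BHLHE40, BNIP3, CITED2, EPO and NDRG1 were 2-fold lower at 48 h, against 4.24% of all genes, and no gene of the 34 was 2-fold higher, against 3.5%. BHLHE40 was at 0.178 (0.157 to 0.201) of its 24 h level, EPO at 0.141 (0.0895 to 0.215) and BNIP3 at 0.335 (0.314 to 0.356). ADM, the vasodilator adrenomedullin, had an FPKM of 7.07 with DMSO against 5.60 with melatonin at 24 h and of 2.73 and 3.16 at 48 h, and CITED2, which competes with HIF for coactivators, had 19.7 and 15.3 and then 8.72 and 8.05. In both genes the libraries of 24 h were above those of 48 h.

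Of the remaining mitochondrial targets, BNIP3L and FAM162A had the same order of times in both treatments and AK4 with DMSO only. BNIP3L, a relative of BNIP3, went from 14.9 to 8.05 with DMSO and from 12.0 to 8.04 with melatonin, FAM162A from 12.3 to 5.70 and from 9.29 to 5.45, and AK4, a mitochondrial adenylate kinase, from 20.9 to 15.1 with DMSO while it had 16.6 and 17.5 with melatonin. HILPDA, a lipid droplet protein, had 4.45 and 3.74 at 24 h and 2.20 and 2.70 at 48 h. TMEM45A had 3.55 and 2.55 at 24 h and 2.06 and 3.07 at 48 h, lower with melatonin first and higher later. ANKRD37 had 41 to 93 reads per library, and MXI1, an antagonist of MYC, was highest with DMSO at 48 h, at 5.23 against 3.66 to 4.18 elsewhere. MIF, a cytokine, had 24 to 42 reads per library, and each interval of its ratios held 1.

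With melatonin in both libraries, 23 of 34 genes were below 0 from 24 h to 48 h and the median was -0.19, beside -0.04 for all 13489 genes, of which 54.9% were below 0. With TPM the direction turned, with 17 of 35 genes below 0 and a median of 0.04 beside 0.23 for all genes. BHLHE40 alone was 2-fold lower, against 1.71% of all genes, and no gene of the 34 was 2-fold higher, against 2.45%. The comparisons over time share their libraries with the comparisons of melatonin and DMSO, so they are not independent of them, and the values are only set side by side here. Of the 34 genes that reached an FPKM of 1, 20 were highest with DMSO at 24 h, against 22.2% of all genes. A further 10 were highest with DMSO at 48 h, 3 with melatonin at 24 h and 1 with melatonin at 48 h. The share of all genes was not computed for these libraries, so these counts cannot be set against it.

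**Figure D4:**
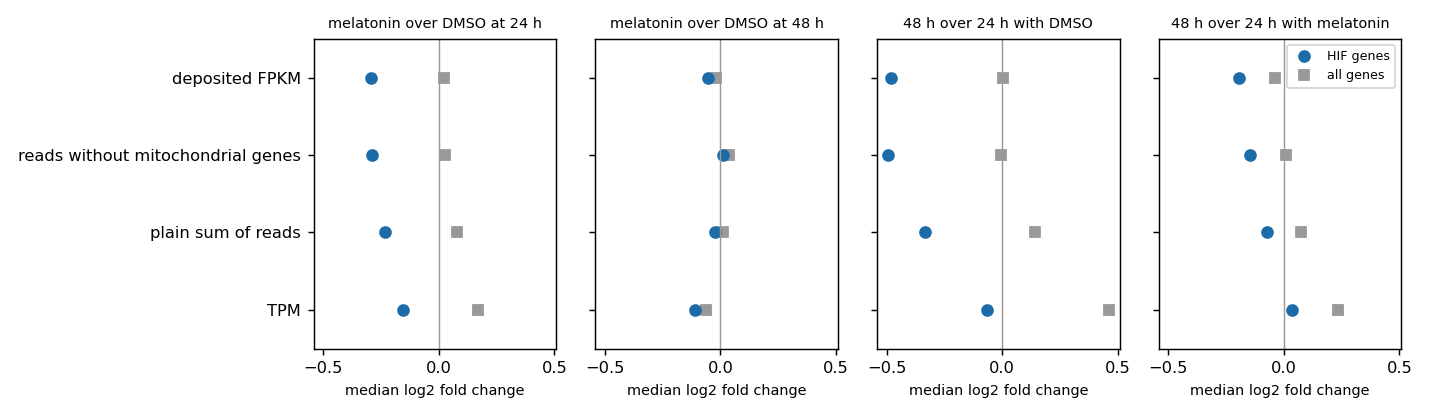
Median log2 fold change of the HIF genes (blue circles) and of all genes counted (grey squares) in each of the 4 comparisons, on 4 scales of the same data. On the TPM scale the median of all genes moved to 0.46 for 48 h over 24 h with DMSO and the median of the HIF genes to -0.06, and the HIF genes had the lower median in every comparison and scale shown.

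The direction over time depended on the scale. Rescaled to TPM, the median of all genes moved from 0.00 to 0.46 for 48 h over 24 h with DMSO, and that of the 34 genes from -0.48 to -0.06, with 18 of 35 genes below 0. On that scale BHLHE40, BNIP3 and EPO were 2-fold lower and ARNT and VEGFA 2-fold higher, in place of 6 lower and 0 higher. Of all genes, 704 were 2-fold lower and 2947 higher with TPM. The number of genes counted with TPM differs from 13854 and is not given here, so no share is stated. The share of all genes below 0 with TPM is not given either. At 24 h TPM moved the median of all genes to 0.17 and that of the HIF genes to -0.15. Among all genes past 2-fold, the higher ones made up 32.7% at 24 h and 45.8% with TPM, 45.2% for 48 h over 24 h with DMSO, 80.7% with TPM and 61.8% when library sizes were plain read sums, and 58.9% and 72.9% with TPM for 48 h over 24 h with melatonin. A log2 ratio nearer to 0 than such a shift of the median and opposite to it in sign has no fixed direction. The share of mitochondrial reads moved with the same libraries, and its part in the result was not tested.

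Other genes of the pathway were described from lists written with earlier results of these data known. Of 18 HIF partners and regulators counted out of 20 (coactivators, ligase subunits, chaperones), AJUBA alone was past 2-fold, lower with melatonin at both times. Of all genes, 2.93% were 2-fold lower at 24 h and 3.32% at 48 h. AJUBA, a scaffold protein of the complex that joins VHL to the hydroxylases, had an FPKM of 61.4 with DMSO against 25.9 with melatonin at 24 h and of 86.0 and 27.8 at 48 h. The median of the list was -0.05 at 24 h and -0.15 at 48 h.

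Of 23 glycolytic targets counted out of 24, 22 were below 0 with melatonin at 24 h, against 46.5% of all genes. Their median was -0.59, and PFKFB3, PFKFB4 and SLC2A3 were 2-fold lower, against 2.93% of all genes. PFKFB3, which makes the activator of phosphofructokinase, had 7.80 and 2.52 at 24 h and 0.798 and 1.51 at 48 h, and PFKFB4 had 10.3 and 3.80 and then 1.01 and 1.35. The glucose transporter SLC2A3 had 83.8 and 33.3 at 24 h and 25.9 and 16.6 at 48 h, while SLC2A1 was higher with melatonin, at 437 against 284 and at 524 against 305. At 48 h none of the 23 was past 2-fold with melatonin, against 2.39% of all genes higher and 3.32% lower. Their median was -0.12. From 24 h to 48 h with DMSO, 17 of the 23 were 2-fold lower, against 4.24% of all genes, with a median of -1.30.

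Of 29 further non-glycolytic targets counted out of 35, the insulin-like growth factor binding protein IGFBP1 was 2-fold higher with melatonin at 24 h and none was 2-fold lower. Of all genes, 1.42% were 2-fold higher at 24 h and 2.93% lower. At 48 h IGFBP3 and TGFA were 2-fold higher, against 2.39% of all genes, and KDM6B 2-fold lower, against 3.32%. IGFBP1 had an FPKM of 216 (DMSO) and 450 (melatonin) at 24 h and of 811 and 1557 at 48 h, with melatonin the higher at each time. IGFBP3 had 3.12 and 4.53 and then 2.93 and 11.2, TGFA had 4.87 and 7.69 and then 5.26 and 12.4, and the histone demethylase KDM6B had 6.02 and 4.40 and then 15.4 and 5.72. The list's median was -0.19 at 24 h and -0.14 at 48 h.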

How the data were processed

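Total RNA of HepG2 cells was taken after 24 h or 48 h with 1 mM melatonin or DMSO, 1 library per condition. By the study's methods, polyadenylated RNA was selected, and MapSplice 2.0.1.6 (alignment to hg38) and Cufflinks (expression) were run on paired-end reads. The submitters' processing notes list Bowtie2 2.0.6, TopHat2 2.0.9, Cufflinks 2.1.1 and Cuffdiff 2.1.1, with no role. The authors deposited FPKM and, as another column, the length in bp of each Ensembl gene. The annotation release, the use of strand and the library size behind the FPKM are not given in the sources used here.

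In each library, 100% of the values above 0 gave whole reads (within 0.001) once FPKM was multiplied by length and divided by the library's smallest step. The library sizes implied ran from 18357838 to 22205042. Levels have exact Poisson intervals, and ratios exact Clopper-Pearson intervals given the summed reads. The fold rule used a pseudocount of 1, a minimum FPKM of 1 and a threshold of 2-fold. Members and lists were chosen with earlier results of these data known. All 37 members were accounted for. Values were given for those past 2-fold in any comparison, the 5 largest changes with melatonin at each time, and the HIF, VHL and EGLN genes, and other values were chosen after they were seen, as were the promoter windows shown. Members of the other lists past 2-fold with melatonin were named, and SLC2A1 was added after its values were seen. The alternatives were a pseudocount of 0.1, no filter, a minimum FPKM of 5, at least 50 reads, a 1.5-fold threshold, centring on the median, TPM, and library sizes as the sum of reads with or without mitochondrial genes. The counts of genes below 0, of ratio intervals and of genes highest in a library were added to them after the data were seen. Scripts were tested on simulated data and used Python 3.11, numpy 2.4.6, pandas 2.3.3, scipy 1.17.1 and matplotlib 3.10.9. Promoter windows are from RefSeq on GRCh38.p14, and exon overlaps from GENCODE 44.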

Additional observations from a re-analysis of the deposited data

Results flagged for a closer look

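Of the 37 genes, 6 had ratio intervals on opposite sides of 1 at 24 h and at 48 h, so that melatonin was above DMSO at one time and below it at the other. The share of all genes with such opposite intervals was not computed, so whether 6 is many or few is unknown. The difference between the times was not tested, since each value rests on 1 library. For VEGFA the log2 ratio of 48 h minus that of 24 h was -1.06, from 0.07 at 24 h and -0.98 at 48 h. For TMEM45A it was 1.05, from -0.47 and 0.58. AK4 had a difference of 0.55, P4HA1 of 0.36 and PLOD1 of 0.30, each below DMSO at 24 h and above it at 48 h. With TPM the intervals of P4HA1 and PLOD1 were no longer above 1 at 48 h, so that these 2 were no longer on opposite sides. ARNT had a difference of -0.48, from 0.23 and -0.25. The ratios of PLOD1, P4HA1 and ARNT were within 0.26 of 0 on the log2 scale at both times, from 443 to 809 reads per library for ARNT, 2279 to 2831 for P4HA1 and 6945 to 10451 for PLOD1.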

How the results depend on the processing

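With 1 library per condition no replicate could be left out. No paired analysis was possible because each condition has 1 library and the labels give no replicate numbers. At 24 h, 2 genes passed 2-fold with melatonin. The count was 4 with a pseudocount of 0.1 and 4 after centring on the median (ANGPTL4 and BNIP3 added). It was 3 with TPM and 3 with reads without mitochondrial genes (ANGPTL4 added). It was 1 with a minimum FPKM of 5 (EPO) and 8 at 1.5-fold. Of all 13582 genes, 546 were 1.5-fold higher and 1023 lower. At 2-fold, 375 were higher and 833 lower with a pseudocount of 0.1, and 176 and 414 after centring. With a minimum FPKM of 5, 25 genes were higher and 93 lower. With TPM 715 were higher and 846 lower, and with reads without mitochondrial genes 211 and 433. These settings count other sets of genes than the 13582, of a size not given here, so no share is stated. At 48 h, 1 passed, against 0 with a minimum FPKM of 5, where CA9 is left out, 5 at 1.5-fold and 2 with TPM (VEGFA added). Of all 13805 genes, 1190 were 1.5-fold higher and 1386 lower. At 2-fold, 1103 genes were higher and 1408 lower with TPM, and 117 and 207 with a minimum FPKM of 5. Both settings count other sets of genes than the 13805, of a size not given here, so no share is stated. From 24 h to 48 h with DMSO, 13 in place of 6 passed at 1.5-fold. At 2-fold with DMSO, 8 passed with a pseudocount of 0.1. With library sizes as plain read sums 4 did (BHLHE40, BNIP3, EPO and NDRG1). With melatonin 5 in place of 1 passed at 1.5-fold, and 2 passed 2-fold with a pseudocount of 0.1. Of all 13854 genes with DMSO, 1550 were 1.5-fold higher and 1746 lower. At 2-fold, 984 were higher and 1095 lower with a pseudocount of 0.1. With plain read sums 609 genes were 2-fold higher and 376 lower, out of a number not given here. Of all 13489 genes with melatonin, 912 were 1.5-fold higher and 816 lower. With a pseudocount of 0.1, 709 genes were 2-fold higher with melatonin and 451 lower. The median at 24 h was -0.15 with TPM. At 48 h it was 0.009 with reads without mitochondrial genes, where 14 in place of 22 genes were below 0 and the median of all genes was 0.04. For 48 h over 24 h, the median for DMSO was -0.0637 with TPM and -0.33 when library sizes were plain read sums, and for melatonin it was 0.0368 with TPM and -0.36 with a minimum FPKM of 5. The cause of these moves was not tested. At 24 h, ratio intervals above 1 were 8 with TPM against 5, with 49.2% of all genes above 1. Those below 1 were 20 to 22 on all scales, beside 11.33% (TPM) to 22.43% (deposited FPKM) of all genes. At 48 h, those above 1 were 4 with TPM against 6, with 25.35% of all genes above 1 on the TPM scale. Genes highest with DMSO at 24 h were 16 of 35 with TPM, when 7.71% of all genes were. CA9 at both times and EPO at 24 h were past 2-fold under each alternative that counted them. CA9, from 25 to 135 reads, and EPO, from 25 to 154, have the widest intervals of the genes past 2-fold.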

Other observations

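Reads of some of these genes could be shared with overlapping genes. In GENCODE 44, 16 of the 37 genes share under 1% of their exonic bases with another gene and 6 share over 20% (VHL, EGLN1, EGLN2, CA9, ANKRD37 and MIF). MIF, the macrophage migration inhibitory factor, shares 94.1% of its exonic bases with genes on the other strand, MIF-AS1 among them. It also shares 48.9% with a gene or genes on the same strand. Its FPKM was 1.07 to 1.73 from 24 to 42 reads per library. MIF-AS1 had 35 and 18 reads at 24 h and 65 and 59 at 48 h (DMSO, then melatonin). ANKRD37 shares 40.4% with UFSP2 on the other strand. EGLN2 shares 30.6%, in part with the readthrough gene RAB4B-EGLN2, which had 0 reads in 3 libraries and 1 read in the other. EGLN1 shares 55.8% with another gene on the same strand and VHL 23.5% with a gene on the other strand. The values of all 6 genes are uncertain to that extent.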
